A study of Mus musculus with 18 samples.

Results

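These data compare DNMT1 carrying W464A, W465A and W796A with DNMT1 carrying W796A alone, in order to ask what the W464A/W465A pair adds when W796A is already present. DNMT1 is the enzyme that copies CpG methylation onto the new strand after DNA replication. W464 and W465 lie in its RFTS domain, which holds the enzyme in an inactive fold and binds histone H3 carrying ubiquitin and trimethylated lysine 9. W796 lies in the first BAH domain, which reads histone H4 trimethylated at lysine 20. Both marks are typical of heterochromatin, the compact part of the genome where much CpG methylation sits.

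The members are 6 of the 18 libraries of the series, chosen by label: 3 of the group W796A and 3 of the group W464A/W465A/W796A. All 6 come from mouse embryonic stem cells in which the endogenous Dnmt1 gene is knocked out. The cells were rescued with mutant DNMT1 from a pPyCAGIP vector and kept under puromycin for more than 2 weeks, so every group shares the knockout, the vector and the selection. Several stable lines were made per construct, and the labels do not say whether the replicates are separate lines. The p-values therefore measure the spread between these libraries, which may be technical in part. The WT and W464A/W465A groups, of 3 libraries each and with the same host cells and vector, serve only as a reference. The assay, eRRBS, is an enhanced form of bisulfite sequencing of a reduced part of the genome, in which the genome is cut with MspI, BfaI and MseI before bisulfite conversion, so CpG-rich fragments are read most.

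The level of a CpG is its methylated reads as a percent of all reads over it. Of 21867550 listed CpGs, 2922262 (13.4%) had at least 5 reads in each of the 6 libraries and were used, with a median of 11 to 15 reads per CpG and library. The libraries held between 74424432 and 103408005 CpG calls. W796A replicate 1 stood apart from the other libraries of its group: its mean level was 72.7% of the mean of the other 2. On chromosomes 8 and 11 its level was 67.3% and 66.8% of theirs, against 73.3% to 74.0% on the other autosomes. Its reads per CpG relative to the rest of the genome were 1.16 and 1.36 there, where the other W796A libraries had 1.00 to 1.01 and 1.19 to 1.23. W464A/W465A/W796A replicate 3 had 1.25 and 1.68 on these chromosomes and 0.00878 on the Y, where the others had 0.0508 to 0.0601. The part of these depth differences in the levels was not tested, and the main values are given with and without W796A replicate 1.

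The following stretches of the plus strand of GRCm38 show the range of behaviour at loci described below. CG in capitals marks every CpG, and each stretch avoids annotated exons. The H19 stretch carries CpGs that were almost emptied, Mest is an imprinted locus, Dpep3 is a germline gene that kept part of its methylation, and the Abca5 and Xrcc5 introns started from nearly equal levels and ended far apart.
H19 upstream, chr7:142581225-142581474: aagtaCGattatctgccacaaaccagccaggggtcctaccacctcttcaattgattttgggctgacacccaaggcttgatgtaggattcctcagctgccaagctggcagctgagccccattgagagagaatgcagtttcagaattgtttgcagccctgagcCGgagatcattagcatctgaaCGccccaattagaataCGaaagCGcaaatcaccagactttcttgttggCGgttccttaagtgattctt
Mest, inside the gene, chr6:30738390-30738621: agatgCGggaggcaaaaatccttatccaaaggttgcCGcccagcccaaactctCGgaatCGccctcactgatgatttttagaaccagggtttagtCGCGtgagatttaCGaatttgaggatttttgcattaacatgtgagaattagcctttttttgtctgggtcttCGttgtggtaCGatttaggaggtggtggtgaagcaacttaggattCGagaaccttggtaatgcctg
Dpep3, upstream of the start site, chr8:105979455-105979568: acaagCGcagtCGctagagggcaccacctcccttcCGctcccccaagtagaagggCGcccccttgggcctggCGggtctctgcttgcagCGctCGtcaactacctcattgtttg
Abca5 intron, chr11:110322522-110322616: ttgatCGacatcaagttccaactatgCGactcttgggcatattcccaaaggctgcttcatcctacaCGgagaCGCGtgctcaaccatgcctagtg
Xrcc5 intron, chr1:72390458-72390514: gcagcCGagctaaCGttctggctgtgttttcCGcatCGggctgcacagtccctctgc

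With W464A/W465A added to W796A, mean CpG methylation was lower in every library. The W796A libraries had mean levels of 45.8%, 65.4% and 60.7%, and the W464A/W465A/W796A libraries had 16.8%, 19.6% and 15.6%. The groups did not overlap: 26.2 points separated the lowest W796A library from the highest W464A/W465A/W796A library, more than the range of 19.6 points within W796A. The means were 57.3% ± 10.2 (SD, n = 3) and 17.3% ± 2.04 (SD, n = 3), a difference of -40.0 points. The exact two-sided permutation test gave p = 0.1, the smallest value that 3 libraries against 3 allow. The triple substitution kept 30.3% ± 3.57 of the W796A mean, where the SD is over its 3 libraries. Against the lowest and the highest W796A library the share was 37.8% and 26.5%, so the W796A library taken as the start moves this share by more than the spread among the triple-substitution libraries. Without W796A replicate 1 the difference was -45.7 points and the share kept 27.5%.

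The same pair of substitutions in the WT protein gave the following reference values, with no library in common. On the same CpGs the WT group had 56.8% ± 6.88 (SD, n = 3) and W464A/W465A had 17.7% ± 2.36 (SD, n = 3), a difference of -39.1 points with 31.1% kept. The group with W465A and W796A but an intact W464 stood at 40.9% ± 3.28 (SD, n = 3), between W796A and the triple substitution.

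By CpG density, the difference in points was widest where the starting level was highest, and the share kept lay between 27.8% and 31.7%. Density was counted as the CpGs within 250 bp on either side, with the CpG itself among them. These are called neighbours here and below, so the class of 1 to 5 includes CpGs with no other CpG in reach. CpGs with 1 to 5 neighbours had 60.1%, 84.4% and 79.9% in the W796A libraries and 20.9%, 22.9% and 18.6% with the triple substitution. CpGs with over 20 neighbours had 6.59%, 11.3% and 8.92% against 2.11%, 3.02% and 2.42%. The groups did not overlap in either class, and every region class had the smallest possible exact permutation p of 0.1. The shares kept were 27.8% ± 2.87 in the sparsest class, 31.7% ± 3.64 at 6 to 10 neighbours, 31.5% ± 4.59 at 11 to 20 and 28.2% ± 5.20 in the densest (SD over the 3 triple-substitution libraries). The difference in the sparsest class minus that in the densest was -47.6 points (exact permutation p = 0.1, adjusted p = 0.143). As a log2 ratio the difference between these classes was -0.03 (exact permutation p = 1), and its sign changed under several alternatives.

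**Figure D1:**
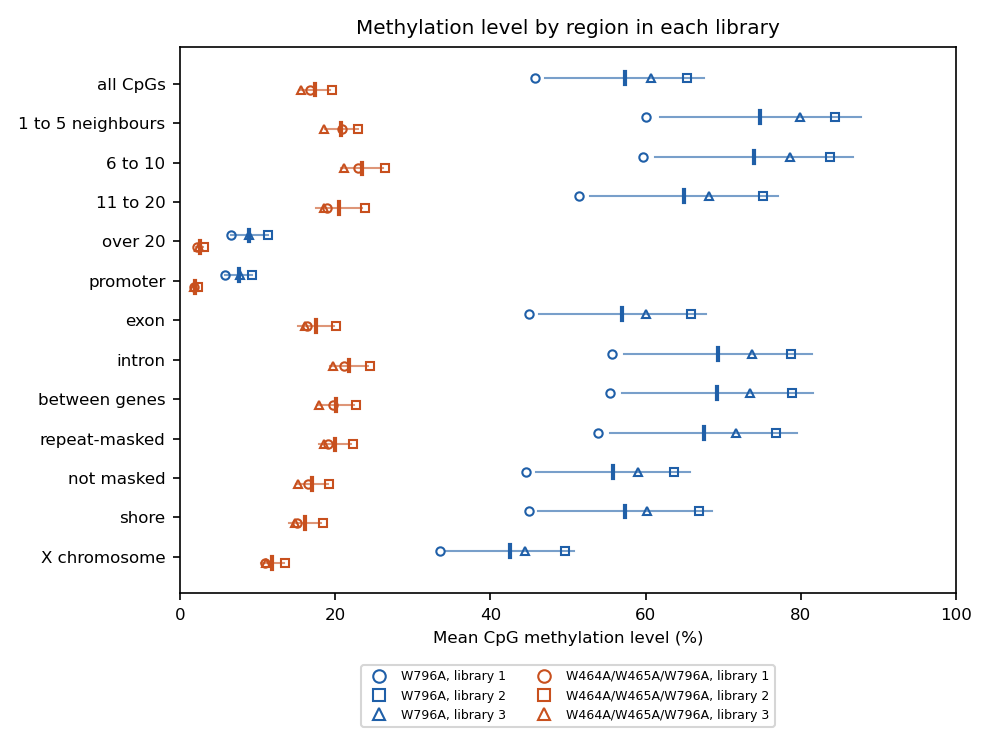
Mean CpG methylation level (%) in each of the 6 libraries by region, W796A in blue and W464A/W465A/W796A in orange; vertical bars are group means and horizontal lines 1 SD. In every class the orange points lie left of the blue ones, and the blue points spread more, with W796A replicate 1 (circle) lowest.

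By gene feature, promoters were low in both groups and had the smallest difference in points. A promoter was taken as 500 bp on either side of the start site of a protein-coding gene. Promoter CpGs had 7.58% ± 1.75 in W796A and 1.97% ± 0.30 with the triple substitution (SD, n = 3 each), so 26.0% was kept. Exons went from 57.0% ± 10.8 to 17.5% ± 2.28, introns from 69.4% ± 12.1 to 21.7% ± 2.49 and CpGs between genes from 69.3% ± 12.3 to 20.1% ± 2.38 (SD, n = 3 each). Their shares kept were 30.7%, 31.4% and 29.0%. In the class of 1 to 5 neighbours, promoters went from 69.8% to 18.2% (26.1% kept), CpGs between genes from 74.6% to 19.4% (26.0% kept), introns from 74.9% to 21.9% (29.2% kept) and exons from 75.3% to 22.0% (29.3% kept). At this density promoters and CpGs between genes thus had nearly the same share. Over all densities, the log2 ratio of the groups between genes was 0.15 higher than at promoters (exact permutation p = 0.1, adjusted p = 0.143), and it was -0.15 when each read, not each CpG, was counted once.

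With distance from the start site, the share kept was first lower and then higher. It was 28.3% within 100 bp, 23.9% at 500 to 750 bp and at 750 to 1000 bp, and 31.7% at 50 to 100 kb. Over the same distances W796A went from 5.31% ± 1.21 to 72.7% ± 12.4, and the triple substitution from 1.5% ± 0.21 to 23.0% ± 2.82 (SD, n = 3 each). The lowest shares lay on the flank of the start-site region. These shares are a description with no test of their own.

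**Figure D2:**
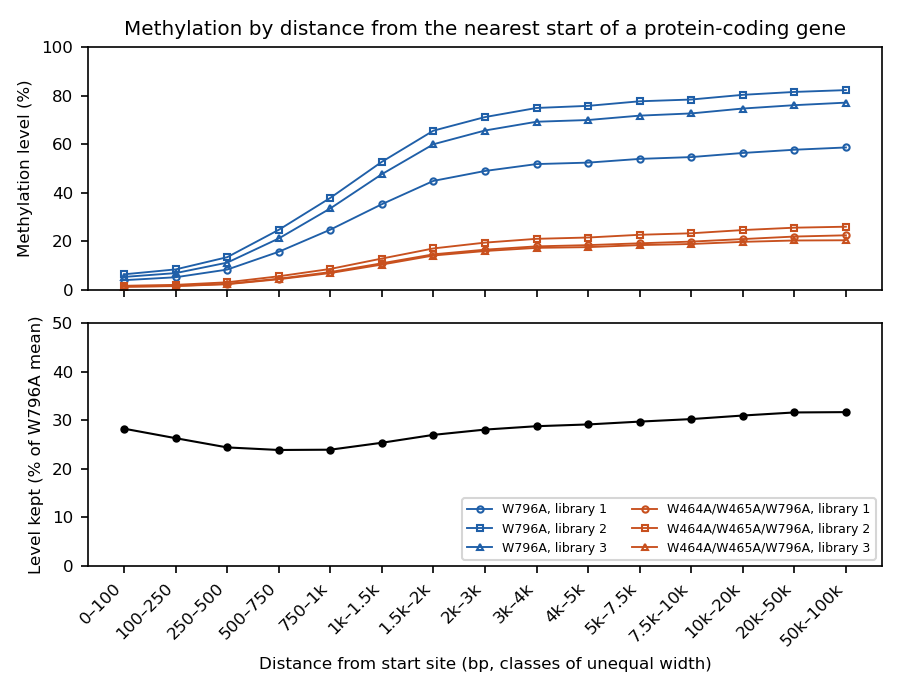
Top: methylation level (%) by distance from the nearest start of a protein-coding gene, 1 line per library (blue W796A, orange W464A/W465A/W796A). Bottom: triple-substitution mean as a percent of the W796A mean, which dips to 23.9% between 500 and 1000 bp and reaches 31.7% at 50 to 100 kb.

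Repeat-masked sequence and the X chromosome had shares kept close to the genome's. Repeat-masked CpGs went from 67.5% ± 12 to 19.9% ± 2.04 and the others from 55.8% ± 9.95 to 16.9% ± 2.05 (SD, n = 3 each), with 29.6% and 30.4% kept. The X chromosome went from 42.6% ± 8.23 to 11.9% ± 1.45, with 27.9% kept against 30.3% on the autosomes. Among autosomes the share ranged from 29.1% on chromosome 7 to 31.2% on chromosome 8. In 15142 domains of 100 kb with at least 50 used CpGs, the 3782 domains poorest in CpGs kept 28.2% ± 3.20 and the 3 richer classes of like size 30.8% to 32%. The 10th and 90th percentiles of the share kept over domains were 24.8% and 35.5%, and in all 15142 the groups did not overlap.

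The share kept also varied with the bases next to the CpG. Among CpGs with 1 to 5 neighbours, those preceded by C and followed by A kept 29.8% and those preceded by G and followed by A kept 25.7%. W796A levels in these classes were 74.5% ± 13.1 and 76.5% ± 13.0 (SD, n = 3 each). The 3 triple-substitution libraries kept 29.4%, 34.0% and 26.0% in the class with C and 26.2%, 27.6% and 23.3% in that with G. The order was thus the same in each library. The SD of 4.02 and 2.19 on these shares includes the level of each library as a whole, and the difference was not tested.

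In 1 kb tiles, methylation fell in most of the genome that was covered. Tiles needed at least 3 used CpGs, and a quasi-binomial model of the summed reads with Benjamini-Hochberg adjustment called a tile at an adjusted p under 0.05 and at least 10 points of difference. Of 345243 tiles, 310490 (89.9%) were called lower with the triple substitution and 1 higher. In 316259 tiles (91.6%) all 3 triple-substitution libraries lay below all 3 W796A libraries. The 34752 tiles not called had mean levels of 14.2% ± 4.40 in W796A and 7.01% ± 1.11 with the triple substitution (SD, n = 3 each). Of them, 24236 were under 10% in W796A, 6465 at 10 to 50% and 4051 at 50% or more. The 4051 went from 69.8% ± 20.9 to 39.1% ± 5.16 (SD, n = 3 each). In promoters 35.4% of tiles were called lower, in bodies of protein-coding genes 95.1% and between genes 94.4%. Each library's own mean level was also entered as an offset. In log odds, 4243 tiles (1.23%) then lost more than their library as a whole and 1702 (0.493%) lost less. Of the 1702, 523 were under 5% in W796A, with means of 0.615% and 0.672%, so they had little to lose. Another 961 were at 20% or more and went from 34.1% to 21.7%. The counts of 4243 and 1702 ranged from 87 to 14735 and from 105 to 3555 when 1 library was left out. They were 14735 and 3555 without W796A replicate 1, so they rest on single libraries.

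The distribution over tiles also differed between libraries. Over 80% were 7.0% of tiles in W796A replicate 1, 69.5% in replicate 2 and 54.5% in replicate 3. In the triple-substitution libraries this share was 0.00463%, 0.0423% and 0.00550%. The median tile level was 59.8%, 87.3% and 81.8% in the W796A libraries and 20%, 23.3% and 18.3% with the triple substitution. Replicate 1 of W796A thus lacked the peak of nearly full methylation that the other W796A libraries had.

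**Figure D3:**
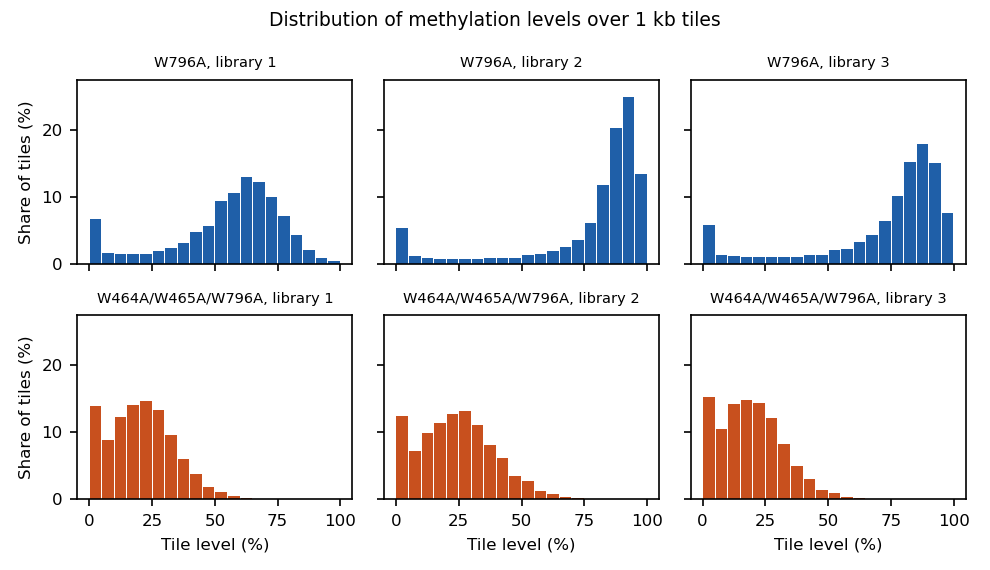
Share of 1 kb tiles (%) by methylation level (%) in steps of 5 points, 1 panel per library. W796A replicates 2 and 3 peak above 80%, replicate 1 peaks between 60 and 65%, and the triple-substitution libraries lie mostly below 50%.

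Tiles that kept more in the WT background also kept more here. Tiles were grouped by the WT and W464A/W465A libraries alone, which are not in the comparison. In 18263 tiles that W464A/W465A left at 50% or more of a WT level of at least 60%, W796A had 68.7%, 89.9% and 87.0% and the triple substitution 36.4%, 39.8% and 32.9%, so 44.5% ± 4.23 was kept (SD over 3 libraries). In 1910 tiles from the same WT levels that W464A/W465A left under 5%, W796A had 54.3%, 83.5% and 74.9% and the triple substitution 9.40%, 12.4% and 9.0%, so 14.5% ± 2.65 was kept. The shares of the single triple-substitution libraries did not overlap between these groups of tiles. Without W796A replicate 1 the shares were 41.1% and 13.0%. Of the first group 62.8% lay in bodies of protein-coding genes and 30% between genes, of the second 37.0% and 51.8%, and of all tiles 51.4% and 34.2%. On average 12% and 30.2% of the CpGs in the first and second group were repeat-masked, against 13.8% over all tiles.

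The share kept was higher where the WT level was higher. Tiles under 20% in WT kept 18.9% ± 4.10, tiles at 20 to 40% kept 20.3%, at 40 to 60% 24.4%, at 60 to 80% 28.2% and at 80% or more 34.6% ± 3.71 (SD over 3 libraries). Over 149676 tiles at 60% or more in both WT and W796A, the median share kept was 30.8% for the triple substitution against W796A and 31.4% for W464A/W465A against WT. Across these tiles the shares had Pearson's r = 0.629 and Spearman's rho = 0.623, a description over tiles that share read depth and CpG content and are not replicates.

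**Figure D4:**
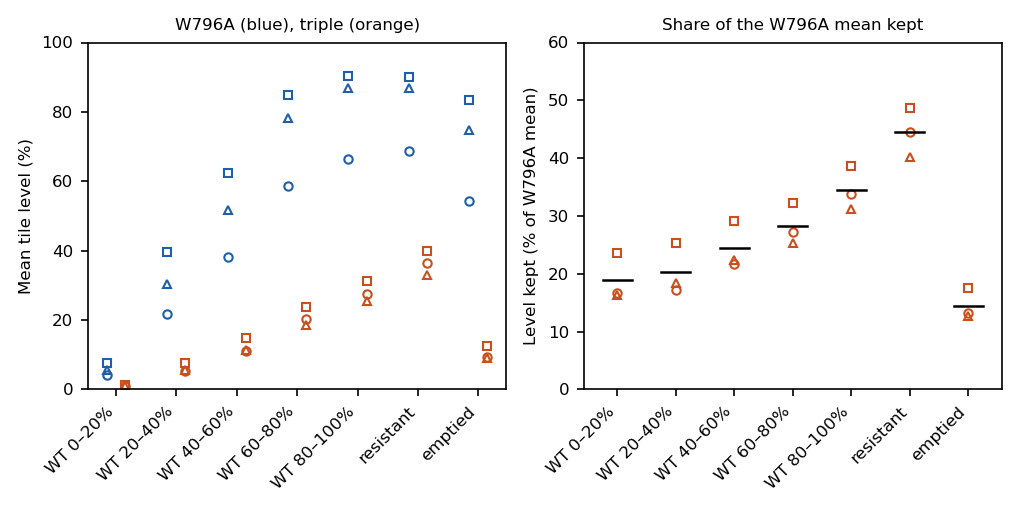
Left: mean tile level (%) in each library for tiles grouped by WT level and for tiles resistant or emptied in W464A/W465A. Right: each triple-substitution library as a percent of the W796A mean, bars at the mean share; it climbs from 18.9% to 34.6% with the WT level and is 44.5% in resistant and 14.5% in emptied tiles.

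The quasi-binomial test found no tile whose loss in the W796A background differed from that in WT, which does not show that the losses were alike. Over 207070 tiles and 12 libraries the interaction term called 0 tiles by the quasi-binomial model (2885 had an unadjusted p under 0.05), 0 by limma (4690) and 1 by edgeR (3682). The mean difference of the differences was 0.54 points. It was -5.84 points without W796A replicate 1 and 5.91 points without W796A replicate 2, so its sign rests on which W796A libraries are used. In 20000 simulated tiles the interaction fit found 5% of 100 tiles shifted by 2 units of log odds toward more loss. It found 48% of 100 tiles shifted by 3 units toward less loss, so most of these shifts were missed. Size and direction changed together, so these shares do not show how recovery depends on size. No simulated library was shifted as a whole, unlike the W796A libraries.

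The tiles with the largest losses went from nearly full to nearly no methylation. In an intron of Abca5, a lipid transporter gene, the W796A libraries had 85.7%, 96.0% and 95.3% and the triple substitution 13.3%, 4.0% and 4.84% over 5 CpGs (adjusted p = 0.000523, quasi-binomial model). In an intron of Myo3a, an unconventional myosin, 75.4%, 93.3% and 90.9% stood against 2.22%, 0.00% and 3.70%. In an intron of Hhat, which adds palmitate to hedgehog proteins, 89.5%, 94.3% and 93.2% stood against 9.38%, 0.00% and 9.20%. The groups were far apart in each. In the library with the fewest reads a count of 0 allows up to 6.67% at Myo3a and 10% at Hhat. The other 7 tiles chosen by size, at most 1 per gene, lay in 4930522H14Rik, Kcnn2, Gabrg3, Arhgef38, Plgrkt, Gm37388 and Nefm, with differences between -89.5 and -83.5 points. All 10 kept an adjusted p of at most 0.00647 in each of 10 other fits.

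At the other end, 9535 tiles with 80% or more in every W796A library and at least 30 reads in all 6 included 58 in which every triple-substitution library stayed at 50% or more. In an intron of Xrcc5, which encodes the Ku80 DNA repair protein, the W796A libraries had 86.4%, 87.5% and 100% and the triple substitution 57.5%, 60% and 56.2% over 4 CpGs. An exon of Adgrl2, an adhesion receptor, had 80.9%, 95.0% and 93.1% against 63.2%, 59.1% and 67.1%. In an intron of Cdh23, a cadherin of hair cells, 81.0%, 92.7% and 92.4% stood against 63.0%, 67.7% and 56.2%. The other tiles among the 10 with the highest minimum lay in Ddx23 and Clca1, or between genes with Tlr2, Ctnnd1, 3110018I06Rik, Zfp462 and Prickle1 as the nearest protein-coding genes, 1725 to 308192 bp away. Their triple-substitution means were 64.4% to 74.3%. These tiles were picked for what they kept, so this is a description. In the W464A/W465A group 9 of the 10 were also at 50% or more of their WT level, a reference that did not enter the choice. Xrcc5 was the exception, with 83.5% in WT and 32.4% in W464A/W465A. In the Abca5 and Xrcc5 stretches printed above, single CpGs ended at 3.70% to 10.4% and at 45.8% to 68.3%, averaged over the 3 libraries.

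The single tile called higher lay in an intron of Nav3, a neuronal navigator gene, at chr10:110015229-110015742. All of its 15 CpGs are repeat-masked and it had at least 287 reads per library. The W796A libraries had 10.9%, 22.6% and 18.8% and the triple substitution 21.4%, 28.2% and 29.9%, so the groups overlapped. The adjusted p was 0.0328 and ranged from 0.0127 to 0.380 over 10 other fits, of which 4 kept the call. WT had 61.0% and W464A/W465A 14.7% there.

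The share kept was higher in CpG-dense repeats than in other CpG-dense sequence. In 3627 tiles with on average 21 or more neighbours and only repeat-masked CpGs, levels went from 43.9% ± 11.1 to 15.8% ± 3.04 (35.9% kept), and in 18787 such tiles with no masked CpG from 11.1% ± 2.92 to 2.70% ± 0.58 (24.4% kept; SD, n = 3 each). The libraries' shares spread by 6.93 and 5.20 points (SD), and this contrast was chosen after the values were seen and not tested. These classes started at unlike levels, and the share kept rose with the WT level in general. Under 21 neighbours, masked tiles went from 74.6% ± 13.0 to 22.5% ± 2.26 (30.1% kept). Tiles there with no masked CpG went from 72.8% ± 12.7 to 22.9% ± 2.77 (31.4% kept). Reads from near-identical repeat copies may be assigned uncertainly in the masked class.

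Taken gene by gene, promoters that started high were mostly called lower. Of 15542 gene promoters with at least 3 used CpGs, 3628 (23.3%) were called lower by the same model, and of the 1897 at 50% or more in W796A, 1850 were called lower. The count over all was 2054 without W464A/W465A/W796A replicate 1. The median difference over all promoters was -2.35 points, and over those at 50% or more in W796A -53.1 points.

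Germline genes, whose promoters are silenced by DNA methylation in somatic cells, were mostly called lower. Of 24 covered promoters 22 were called lower, with a median difference of -38.7 points. Of all promoters at 20% or more in W796A, the level that 22 of these genes reached, 3076 of 3325 (92.5%) were called lower, with a median of -42.3 points. The germline count is near what promoters with that start showed in general. The count was 5 without W464A/W465A/W796A replicate 1 and 12 to 23 without each of the others. Fkbp6, needed for meiosis, had 56.6%, 91.9% and 89.4% in W796A and 12.5%, 18% and 22.2% with the triple substitution. Dazl, an RNA-binding protein of germ cells, had 38.4%, 69.6% and 50.3% against 12.3%, 22.4% and 13.9%. Both show the low W796A replicate 1 beside a narrow triple-substitution group. The shares kept were 22.2% and 30.7%.

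The lowest share among them was that of Hormad2, a meiotic chromosome protein, which had 31.8%, 75.2% and 48.4% against 2.74%, 6.16% and 5.67% (9.37% kept). Tdrd9 and Dpep3 had the highest, 45.8% and 42.3%. Dpep3, a membrane dipeptidase of the testis, had 60.1%, 93.0% and 86.2% in W796A against 28.9%, 38.4% and 34.0%. In the printed Dpep3 stretch, the CpG levels of the triple substitution ran from 4.23% to 52.8% within 114 bases, while the W796A means ran from 75% to 90.2%. The piRNA pathway gene Mov10l1 had 65.3%, 84.3% and 79.8% against 29.1%, 28.8% and 28.2%. Asz1, Brdt, Ddx4, Hormad1, Mael, Piwil2, Rpl10l, Slc25a31, Stk31, Sycp1, Sycp3, Taf7l, Tdrd1, Tex101, Tex19.1 and Tuba3b kept between 20% and 37.9%.

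Imprinted loci carry methylation on the allele of 1 parent, set in the germline and then copied by DNMT1. Of 15 covered promoters of maternally methylated loci, 5 were at 20% or more in W796A. Called lower were 5 (33.3%), against 23.3% of all covered promoters and 92.5% of those at 20% or more. The count was 1, 3 and 2 without W464A/W465A/W796A replicates 1, 2 and 3 in turn. Mest had 45%, 51.6% and 59.2% in W796A and 4.91%, 4.50% and 3.98% with the triple substitution, 8.60% kept. Nap1l5 had 12.9%, 41.6% and 40.7% against 1.13%, 2.74% and 1.37%. Nnat had 31.0%, 13.7% and 76.2% against 1.25%, 0.00% and 0.00%, and missed the threshold (adjusted p = 0.0600, quasi-binomial model). At Mest, Nnat, Peg13 and Plagl1 the highest W796A library was replicate 3, so the order of the W796A libraries at these loci is not that of their mean levels. WT, pooled over reads, had 24.7% at the Mest promoter, 15.8% at Nap1l5, 20.9% at Nnat, 20.1% at Peg13 and 6.97% at Plagl1. The W796A means there were 51.9%, 31.7%, 40.3%, 24.4% and 22.7%. These losses thus started above the WT level, a difference that was not tested.

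In the printed Mest stretch all 10 CpGs were listed at 0% in every triple-substitution library. The libraries had 86 to 184 reads there, and a count of 0 in 86 reads allows a level of up to 3.49%. W796A had 41.4%, 27.5% and 39.6% there, WT 1.62% and W464A/W465A 0.825%. The W796A libraries thus all stood above the pooled WT level at this stretch. Replicate 1 was the highest W796A library here, while over the whole Mest promoter replicate 3 was highest and WT had 24.7%. The labels do not say whether the rescued lines of these groups share a parental clone, so a difference between lines and one between constructs cannot be told apart here. The other 10 promoters of this list were under 20% in W796A.

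Of 5 covered promoters of paternally methylated loci, 3 were at 20% or more in W796A. Against 23.3% of all covered promoters, 3 (60%) of this list were called lower, and all 3 in each fit that left out a library. H19, a noncoding RNA gene, had 63.4%, 96.3% and 81.0% against 0.00%, 17.0% and 16.1% over 3 CpGs with as few as 19 reads, where a count of 0 allows up to 15.8%. Meg3 had 38.1%, 52.8% and 65% against 8.68%, 14.0% and 10.5%, and Dlk1 17.6%, 30.6% and 25.9% against 4.70%, 5.35% and 3.23%. WT, pooled over reads, had 44.1% at the H19 promoter (68 reads), 63.75% at Meg3 and 26.4% at Dlk1. The W796A means were 80.2%, 52.0% and 24.7%, so only H19 started above WT. A tile 2900 bp from H19, in the stretch where the control region of this imprinted cluster lies, was among those with the largest loss beyond the library level. It had 62.6%, 92.6% and 87.3% in W796A and 0.00%, 1.22% and 1.28% with the triple substitution, from at least 82 reads. WT had 41.4% and W464A/W465A 0.955%. This tile was singled out after its values were seen.

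Nefm, which encodes the medium neurofilament protein of axons, was nearly emptied. Over 57 CpGs of its promoter the W796A libraries had 51.7%, 73.0% and 80.2% and the triple substitution 0.202%, 0.607% and 0.756% (0.764% kept; adjusted p = 0.00390, quasi-binomial model). Each library had at least 726 reads there. WT had 21.5% and W464A/W465A 0.375% over the promoter. Of the other neurofilament genes, Ina, Nefh and Nefl were under 20% in W796A.

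**Figure D5:**
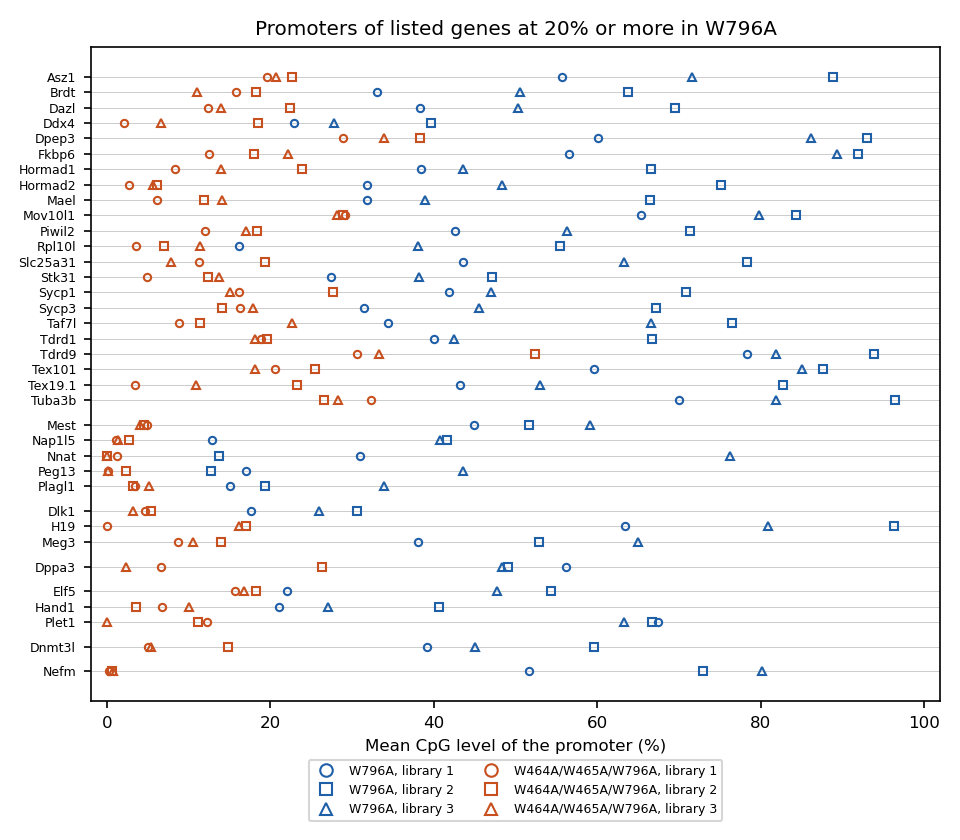
Mean CpG level (%) of promoters at 20% or more in W796A, from germline genes (top) to imprinted, pluripotency, trophoblast, enzyme and neurofilament genes, with 1 point per library. The orange points of W464A/W465A/W796A lie left of the blue W796A points in every row, from Nefm near 0 to Tdrd9 with 1 library at 52.4%.

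Promoters of pluripotency genes were mostly low already in W796A. Of 15 covered, 14 were under 20%, among them Pou5f1, Sox2 and Nanog. Called lower were 2 (13.3%), against 23.3% of all covered promoters. Dppa3, a factor of oocytes and embryonic stem cells, had 56.1%, 49.1% and 48.3% against 6.61%, 26.3% and 2.31%. Its call was kept in 1 of 6 fits that left out a library, and the count of the list was 1 in all of these but that without W464A/W465A/W796A replicate 2. No expression was measured here. In the trophoblast list 3 of 9 (33.3%) were called lower, and 3 were at 20% or more in W796A. Elf5, which is methylated in the embryonic lineage, had 22.0%, 54.3% and 47.8% against 15.6%, 18.2% and 16.8%. Its call was kept in 1 of 6 fits that left out a library. Hand1 and Plet1 kept 22.9% and 11.9%. Of 11 genes for DNA methylation and demethylation enzymes 1 (9.09%) was called. It was Dnmt3l, a cofactor of the de novo enzymes, with 39.1%, 59.6% and 45% against 5.0%, 14.8% and 5.34%. All 11 covered promoters of genes for heterochromatin histone methylation were under 20% in W796A, with a highest mean of 10.8%.

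Gene families are given by their counts and shares kept, with no test between them. For comparison, 23.3% of all covered promoters were called lower. Promoters at 20% or more in W796A were called lower in 92.5% of cases with a median of 24.5% kept, and those at 50% or more in 97.5% with 26.6% kept. The family counts run over all covered promoters, and the family shares kept are ratios of group means, not medians. At 20% or more were 75 olfactory receptor, 5 vomeronasal receptor and 41 keratin promoters. So were 12 protocadherin, 8 Hox, 42 Zfp and 3 ribosomal protein promoters. Of 76 olfactory receptor promoters 73 were called lower, with a median difference of -59.5 points and 25.1% kept, and of 6 vomeronasal receptor promoters 5 were (18.9% kept). Of 43 keratin promoters 38 were called lower, with 31.9% kept. Clustered protocadherins, adhesion proteins that give neurons their identity, had 16 of 32 promoters called lower and kept 12.6%, and 15.0% over 123 tiles in their bodies and promoters. Hox genes had 9 of 37 called lower and kept 19.9%. Zinc finger Zfp genes had 46 of 312 and ribosomal protein genes 3 of 75 called lower, with median differences of -1.54 and -0.16 points. Without W464A/W465A/W796A replicate 1 the counts were 44 for olfactory receptors, 16 for keratins, 9 for protocadherins, 30 for Zfp genes and 1 for ribosomal protein genes. Without W464A/W465A/W796A replicate 3 they were 47 for olfactory receptors and 22 for keratins.

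Within these families the promoters with the largest losses were Pcdha8 among protocadherins (45.6%, 90.6% and 90.3% against 1.05%, 6.61% and 2.21%), Olfr539, Vmn1r87, Zfp872 and Krt82. Zfp872 had 57.0%, 80.2% and 72.6% in W796A and 2.66%, 1.53% and 4.82% with the triple substitution, 4.30% kept. The smallest losses among promoters at 50% or more in W796A were those of Pcdhb7, Olfr1511, Vmn1r1, Zfp112 and Krt28. Krt28 had 44.4%, 63.3% and 55.6% against 44.4%, 33.3% and 21.2% over 3 CpGs with as few as 18 reads, so the groups touched, and it missed the threshold (adjusted p = 0.0675, quasi-binomial model). The only ribosomal protein promoter at 50% or more was that of Rpl3l, a form of striated muscle, which kept 26.8%.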

How the data were processed

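CpG methylation was measured by eRRBS in 18 libraries of Dnmt1-knockout mouse embryonic stem cells, of which the 3 W796A and 3 W464A/W465A/W796A libraries were compared. The authors deposited 1 table of counts, with methylated and all reads per CpG and library. Per the submitters' processing notes, cutadapt 1.2.1, Bismark 0.18.1 and Bowtie 1.2 were used with the mm10 (GRCm38) build. Members, gene lists and tests were chosen with earlier results of these data known.

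Levels were computed with Python 3.11.15 and pandas 2.3.3 on CpGs with at least 5 reads in each of the 6 libraries, each CpG counted once. Group means were compared with exact two-sided permutation tests. Reads summed over 1 kb tiles and gene promoters with at least 3 such CpGs were fitted with a quasi-binomial model whose overdispersion was squeezed across features, with Benjamini-Hochberg adjustment. A call needed an adjusted p under 0.05 and at least 10 points between pooled group levels. Limma 3.58.1 and edgeR 4.0.16 (on methylated and unmethylated counts) were alternatives, beside other coverage minimums, tile sizes and filters, the replicate number as a block, and fits that omit 1 library at a time. In 20000 simulated tiles the fit of 6 libraries recovered 48% of 100 tiles shifted by 2 units of log odds. It recovered 66% of 100 tiles shifted by 3 units and called 5 unchanged tiles. Far fewer tiles were changed than in the data, and no simulated library was shifted as a whole. These shares therefore do not give the recovery in the data. Over tiles, same-numbered libraries had correlations of their deviations of -0.04 to 0.05, and libraries with different numbers -0.05 to 0.05. Such correlations leave out a shift of a whole library's level, and replicate 2 had the highest mean level in both groups. They therefore do not settle whether the numbers pair the libraries.

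Tiles were named by size of difference (10), from called tiles in which the groups did not overlap. Also named were all higher calls and the 10 with the highest minimum in the triple substitution. Listed genes were named where the W796A promoter mean was at least 20%, and family promoters by largest and smallest loss from 50% or more. Sequences come from the GRCm38.p6 RefSeq reference. Sequencing reads are not independent molecules, so limits from read counts cover counting error only.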

Additional observations from a re-analysis of the deposited data

How the results depend on the processing

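The difference in mean level was -28.7 points at 10 reads per CpG and -10.1 points at 20, where mostly CpG-dense sequence is left. The replicate block left it at -40.0 points (exact sign-flip p = 0.25, the smallest possible) and called 305400 tiles lower. Lower tiles numbered 704186 of 812400 (86.7%) with at least 1 CpG per tile and 23872 of 43252 (55.2%) with at least 10. They numbered 74687 of 97824 (76.3%) at 10 reads per CpG and 4243 of 345243 (1.23%) with the library offset. Limma called 312115 and edgeR 311029. Higher tiles numbered 2 in 500 bp tiles, with at least 1 CpG and at 10 reads, 6 with no minimum difference, 1702 with the offset, and 0 in 5 kb tiles, with at least 10 CpGs, with all 18 libraries, with no squeezing, at 25 points, by limma and by edgeR. Leaving out 1 library gave 0 to 5 higher tiles, 0 to 1 tiles differing between backgrounds (edgeR on all libraries gave 1) and 2054 to 4045 lower promoters. It gave 87 to 14735 tiles beyond and 105 to 3555 short of the library level, of which 78 to 1677 started from 20% or more. Log2 contrasts between regions changed sign. X against autosomes was 0.19 at 20 reads (-14.0 in points), between genes against promoters -0.088 at 20 reads and -0.15 with each read counted once, and repeat-masked against not 0.025 at 20 reads. Shore against dense region was 0.024 at 10 reads, 0.00039 at 20 and -0.084 to 0.026 with 1 library left out. Sparsest against densest was 0.056 at 10 reads, 0.013 on CpGs covered in all 18 libraries and -0.16 to 0.038 with 1 library left out. Of the values for single genes, tiles and contrasts, 431 stayed the same, 71 lost an adjusted p under 0.05, 3 gained one and 17, the contrasts above, reversed. Genes and tiles were judged by direction and adjusted p, without the minimum of 10 points, and contrasts by direction alone. The cause of these changes was not tested. At 11 to 15 reads per CpG, single CpGs are imprecise and tiles rest on medians of 48 to 67 reads.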
